A study of Homo sapiens with 16 samples.

Results

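The genes described here are 45 DNA replication and cell cycle genes, measured in Caco-2 cells, a human cell line from a colon adenocarcinoma that is widely used as a model of the intestinal epithelium. They were found by their gene names on the array, which include older names (CDC2 for CDK1, CDC45L for CDC45, ORC1L for ORC1 and ORC6L for ORC6), and each gene was represented by its brightest probe, judged by the mean of the deposited log2 values. All 45 were found among 30982 gene names, and all 45 probes gave a signal well above background on all 16 arrays, with no saturated spot. Of the 45 genes, 33 had 1 probe and 12 had several.

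Undifferentiated cells were kept for 6 h in minimal essential medium with 1% serum and received nothing further (MED-CTL), 150 µg/ml of the synthetic gliadin peptide p31-43, a digest of gliadin by pepsin and trypsin (PT-G), or the same enzyme mixture carried through without a substrate (PT). The enzymes had been inactivated by heat, and the concentrations of PT and PT-G are not given in the sources used here. Each condition had 4 arrays, from 4 independent experiments with cells that differed by a few passages, and all cells were harvested with trypsin-EDTA. The arrays fell into 4 runs, each a set of arrays whose files were named with the same date and each with 1 array of every condition, so values on single arrays are given below in the order of runs 1 to 4. Each run had a slide of its own, except that PT replicate 3 (run 3) and p31-43 replicate 4 (run 4) shared a slide 5, which was scanned on a later day than the rest of their runs. Runs 1 and 2 were scanned on 1 day. MED-CTL replicate 2 belonged to run 1 and MED-CTL replicate 1 to run 2, while in the other conditions the replicate and run numbers were the same. All values are log2 intensities after quantile normalization, and levels of different probes cannot be compared.

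All 10 epithelial markers of the Caco-2 label were well above background on all 16 arrays. The same held for 3 of 5 leukocyte, 3 of 5 fibroblast and 2 of 4 endothelial markers, and none of the markers of those other cell types passed the test in any comparison. With the run as a block, 1 fibroblast marker, COL3A1, passed it below MED-CTL under PT-G and PT, at -0.45 and -0.52. So did the epithelial markers CDX2, at -0.72 and -0.64, and, under PT, VIL1, at -0.20. Among the epithelial markers, KRT20, a keratin of differentiating enterocytes, rose by 0.63 ± 0.12 (SE) under PT-G and by 0.50 ± 0.12 under PT on the log2 scale (limma, adjusted p = 0.0251 and 0.0884). The part of these markers in the results below was not tested. Correlations between arrays ranged from 0.97 to 0.998 and no pair of arrays was identical.

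A chromosome is copied once per cell cycle. In G1, the origin recognition complex, CDC6 and CDT1 load the ring-shaped MCM helicase at origins, a step called licensing. At the start of S phase, CDC45 and the GINS complex turn the helicase on, primase and the DNA polymerases follow it, and PCNA, opened and closed by the RFC clamp loader, holds the polymerases on the template. Many of these genes are transcribed in late G1 under the control of E2F factors, whereas the genes of G2 and mitosis, such as cyclin B1, peak later and often carry CCAAT boxes and a cell cycle homology region. In intestinal epithelium the programme is active in dividing crypt cells and is switched off as enterocytes differentiate. In cultures measured whole, fewer cells in S phase and less RNA per cell cannot be told apart.

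Promoter windows from RefSeq, 250 bases before to 50 bases after the transcription start in build GRCh38.p14, were matched to 40 of the 45 genes through the accession of the probe. None was matched for MCM4, MCM5, POLD3, CCNE2 and AURKA. A short E2F-type motif, read as TTTCCCGC, TTTCGCGC, TTTGCCGC or TTTGGCGC on either strand, stood in 18 of the 51 windows of these genes (35.3%) and in 3.31% of all 35116 windows. Counted by gene, it stood in 16 of 31 genes of licensing, the fork, nucleotide supply and S phase entry, and in 1 of 9 genes of G2 and mitosis. CCAAT, on either strand, stood in 9 of 9 genes of G2 and mitosis and in 18 of the 31 others. By window it stood in 36 of 51 (70.6%), against 34.6% of all windows. TTTGAA, the core of the cell cycle homology region, stood in 5 of 9 and 1 of 31 genes. By window it stood in 7 of 51 (13.7%), near the 15.2% of all windows. These matches are descriptions of letters, and no factor was measured. The windows of CDT1 (chr16:88803539-88803838, plus strand), PRIM1 (chr12:56752274-56752573, minus strand) and POLE2 (chr14:49688165-49688464, minus strand) are shown because CDT1 and PRIM1 passed the test below MED-CTL and POLE2 lay above it. Capitals mark the E2F-type letters of CDT1, with the first base at -35 from the transcription start, the CCAAT letters of PRIM1 at -18 and the E2F-type letters of POLE2 at -5, and the E2F-type letters are read here from the other strand.
CDT1: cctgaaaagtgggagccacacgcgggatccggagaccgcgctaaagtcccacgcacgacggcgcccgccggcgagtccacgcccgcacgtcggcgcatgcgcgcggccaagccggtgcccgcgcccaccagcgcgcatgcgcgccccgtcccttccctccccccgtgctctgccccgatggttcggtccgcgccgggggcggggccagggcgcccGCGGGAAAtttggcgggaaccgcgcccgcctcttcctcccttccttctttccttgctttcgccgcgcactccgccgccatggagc
PRIM1: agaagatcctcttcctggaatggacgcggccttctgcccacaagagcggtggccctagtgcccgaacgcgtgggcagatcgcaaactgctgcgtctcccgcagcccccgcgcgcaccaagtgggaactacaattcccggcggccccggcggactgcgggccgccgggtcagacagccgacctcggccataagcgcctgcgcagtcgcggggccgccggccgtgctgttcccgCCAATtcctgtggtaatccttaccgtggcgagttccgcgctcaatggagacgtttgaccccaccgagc
POLE2: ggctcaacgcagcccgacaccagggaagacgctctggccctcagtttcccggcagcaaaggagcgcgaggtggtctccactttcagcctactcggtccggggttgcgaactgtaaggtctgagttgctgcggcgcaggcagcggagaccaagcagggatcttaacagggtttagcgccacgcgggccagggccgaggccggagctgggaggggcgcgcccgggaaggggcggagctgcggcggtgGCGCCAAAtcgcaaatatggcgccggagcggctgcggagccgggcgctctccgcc

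The E2F-type letters were thus present in the window of a gene below MED-CTL and of a gene above it, and absent from the window of PRIM1. Under PT-G, 14 of the 17 genes with these letters and 23 of the 23 without lay below MED-CTL, with median log2 fold changes of -0.13 and -0.17. Under PT, the numbers were 15 of 17 and 21 of 23, with medians of -0.18 and -0.20.

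The comparison of PT-G with MED-CTL asked how a gliadin digest acts on the cells. Most replication genes lay slightly below MED-CTL, and few passed the test one by one. CDT1, POLD3 and PRIM1 fell at a nominal p below 0.01, the threshold of the study, and no member rose. Of all 40982 probes tested, 1.52% fell and 1.91% rose at this threshold. None of the 45 passed an adjusted p of 0.05, which 0.351% of all probes did below MED-CTL and 0.593% above it. At a nominal p below 0.05, 5 members lay lower and 1 higher, against 3.79% and 4.19% of all probes. The log2 fold change was below 0 for 41 of 45 genes, against 52.1% of all probes, and its median was -0.15 against -0.01 for all probes.

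**Figure D1:**
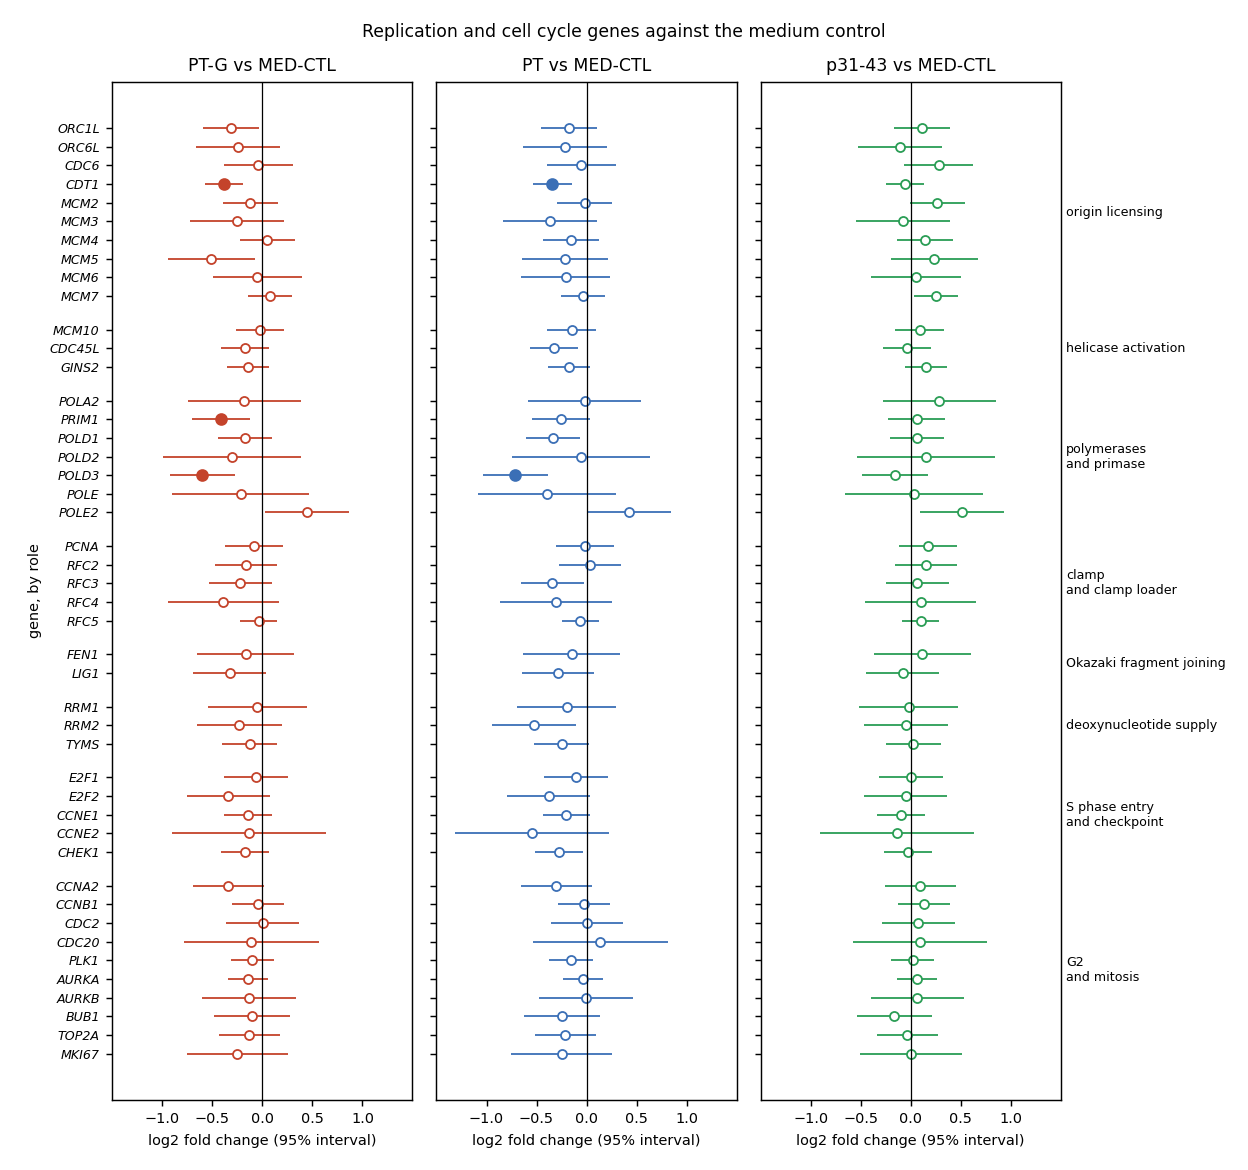
Log2 fold change of each of the 45 genes against MED-CTL with its 95% interval (limma, 4 arrays per condition), grouped by role, for PT-G, PT and p31-43. Filled points passed a nominal p below 0.01: CDT1, POLD3 and PRIM1 under PT-G, POLD3 and CDT1 under PT, and none under p31-43.

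Among the 10 licensing genes, 8 lay below MED-CTL under PT-G. CDT1, the loading factor that brings the MCM helicase to the origin, measured 15.64, 15.55, 15.65 and 15.32 in MED-CTL and 15.17, 15.24, 15.25 and 14.96 under PT-G. Every PT-G array lay below every MED-CTL array, which held for 1 member and for 1.86% of all probes. CDT1 fell by 0.38 ± 0.09 (SE, n = 4 and 4), a fold change of 0.766 (limma, adjusted p = 0.0711). With its 2 probes averaged, the difference was -0.31 and did not pass the nominal threshold (limma, adjusted p = 0.567). MCM5, a helicase subunit, measured 13.40, 13.72, 12.78 and 13.33 in MED-CTL and 12.99, 13.12, 12.34 and 12.74 under PT-G. It was lower under PT-G in every run, but the groups overlapped, run 3 being the lowest in both, and its difference of -0.51 ± 0.20 did not pass the nominal threshold (limma, adjusted p = 0.458). It passed with the run or the replicate number as a block (limma, adjusted p = 0.0281 and 0.0733). ORC1L, the largest subunit of the origin recognition complex, was also lower in every run, from 9.89, 10.00, 9.50 and 9.84 to 9.69, 9.61, 9.39 and 9.28. Its difference was -0.31 ± 0.13 (limma, adjusted p = 0.526). The other licensing genes did not pass the test, and all 10 lay between -0.51 and 0.07. Those above MED-CTL were MCM4 and MCM7, at 0.05 and 0.07. MCM2, another helicase subunit, measured 14.14, 14.50, 13.85 and 14.36 in MED-CTL and 14.16, 14.20, 13.88 and 14.13 under PT-G, so its groups overlapped.

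Of the 7 genes for polymerases and primase, 6 lay below MED-CTL under PT-G. POLD3, an accessory subunit of polymerase delta, measured 13.95, 13.83, 14.31 and 13.60 in MED-CTL and 13.12, 13.14, 13.67 and 13.37 under PT-G. The PT-G array of run 3 lay just above the MED-CTL array of run 4, and otherwise the groups were apart. POLD3 fell by 0.60 ± 0.15, a fold change of 0.66 (limma, adjusted p = 0.101). PRIM1, the catalytic subunit of primase, measured 11.89, 12.06, 12.26 and 12.25 in MED-CTL and 11.63, 11.59, 11.57 and 11.99 under PT-G. The array of run 4 stood above the other PT-G arrays and overlapped with MED-CTL. PRIM1 fell by 0.42 ± 0.13, a fold change of 0.749 (limma, adjusted p = 0.254). It missed the nominal threshold when MED-CTL replicate 1, 3 or 4, p31-43 replicate 2 or PT-G replicate 1, 2 or 3 was left out, with differences between -0.37 and -0.43. POLE2, the second subunit of polymerase epsilon, went the other way. It measured 10.07, 10.39, 10.37 and 10.98 in MED-CTL and 10.77, 10.83, 10.68 and 11.31 under PT-G. It was higher in every run, by 0.44 ± 0.20 on average (limma, adjusted p = 0.569).

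The helicase activators, clamp, joining and nucleotide genes gave no call under PT-G without a block. Their differences lay between -0.17 and -0.02 for the 3 helicase activators (CDC45L, GINS2 and MCM10), between -0.39 and -0.03 for the 5 genes of the clamp and its loader, at -0.33 and -0.17 for the ligase LIG1 and the flap nuclease FEN1, and between -0.23 and -0.05 for the 3 nucleotide genes. PCNA, the sliding clamp, measured 14.78, 14.93, 14.89 and 15.17 in MED-CTL and 14.73, 14.79, 14.69 and 15.22 under PT-G, and the groups overlapped almost fully. The 95% interval of its difference ran from -0.37 to 0.20. LIG1, the ligase that seals Okazaki fragments, was lower in every run, by -0.35, -0.39, -0.35 and -0.23 (limma, adjusted p = 0.72), and passed the nominal threshold with either block. RRM2, the regulated subunit of ribonucleotide reductase, measured 12.33, 12.41, 12.92 and 12.55 in MED-CTL and 11.98, 12.11, 12.78 and 12.42 under PT-G. Its 95% interval ran from -0.65 to 0.19. TYMS, which makes thymidylate, ranged from 14.95 to 15.51 in MED-CTL and from 14.82 to 15.30 under PT-G, and its interval ran from -0.40 to 0.15.

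The genes of S phase entry and of mitosis also gave no call under PT-G without a block. E2F1, a transcription factor of the programme, measured 14.01, 13.99, 13.65 and 13.51 in MED-CTL and 13.88, 13.92, 13.61 and 13.50 under PT-G, and CCNE1, a cyclin that drives entry into S phase, ranged from 14.39 to 14.84 and from 14.38 to 14.62. For both genes the groups overlapped. CCNE2, its close relative, ranged from 8.27 to 9.30 in MED-CTL and from 7.95 to 9.55 under PT-G, with run 3 the highest in both. CHEK1, a checkpoint kinase, was lower in every run, by -0.23, -0.24, -0.10 and -0.13 (limma, adjusted p = 0.875). CCNA2, the cyclin of S phase and G2, measured 12.38, 12.36, 12.35 and 11.76 in MED-CTL and 12.01, 11.97, 11.93 and 11.57 under PT-G. It was lower in every run, with a difference of -0.34 ± 0.16 (limma, adjusted p = 0.664), and passed the nominal threshold with the run or the replicate number as a block (limma, adjusted p = 0.049 and 0.0707). CCNB1, the mitotic cyclin, CDC20, an activator of the anaphase-promoting complex, TOP2A, a topoisomerase, and MKI67, the proliferation marker Ki-67, had differences of -0.04, -0.11, -0.13 and -0.25. On single arrays CCNB1 ranged from 14.93 to 15.15 in MED-CTL and from 14.83 to 15.12 under PT-G, TOP2A from 13.08 to 13.20 and from 12.85 to 13.30, and MKI67 from 8.74 to 9.75 and from 8.86 to 9.39. CDC20 spread widely in both, from 12.09 to 13.25 and from 11.98 to 13.30. The 95% intervals of all these differences included 0 and reached -0.31, -0.78, -0.43 and -0.76 at the low end.

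**Figure D2:**
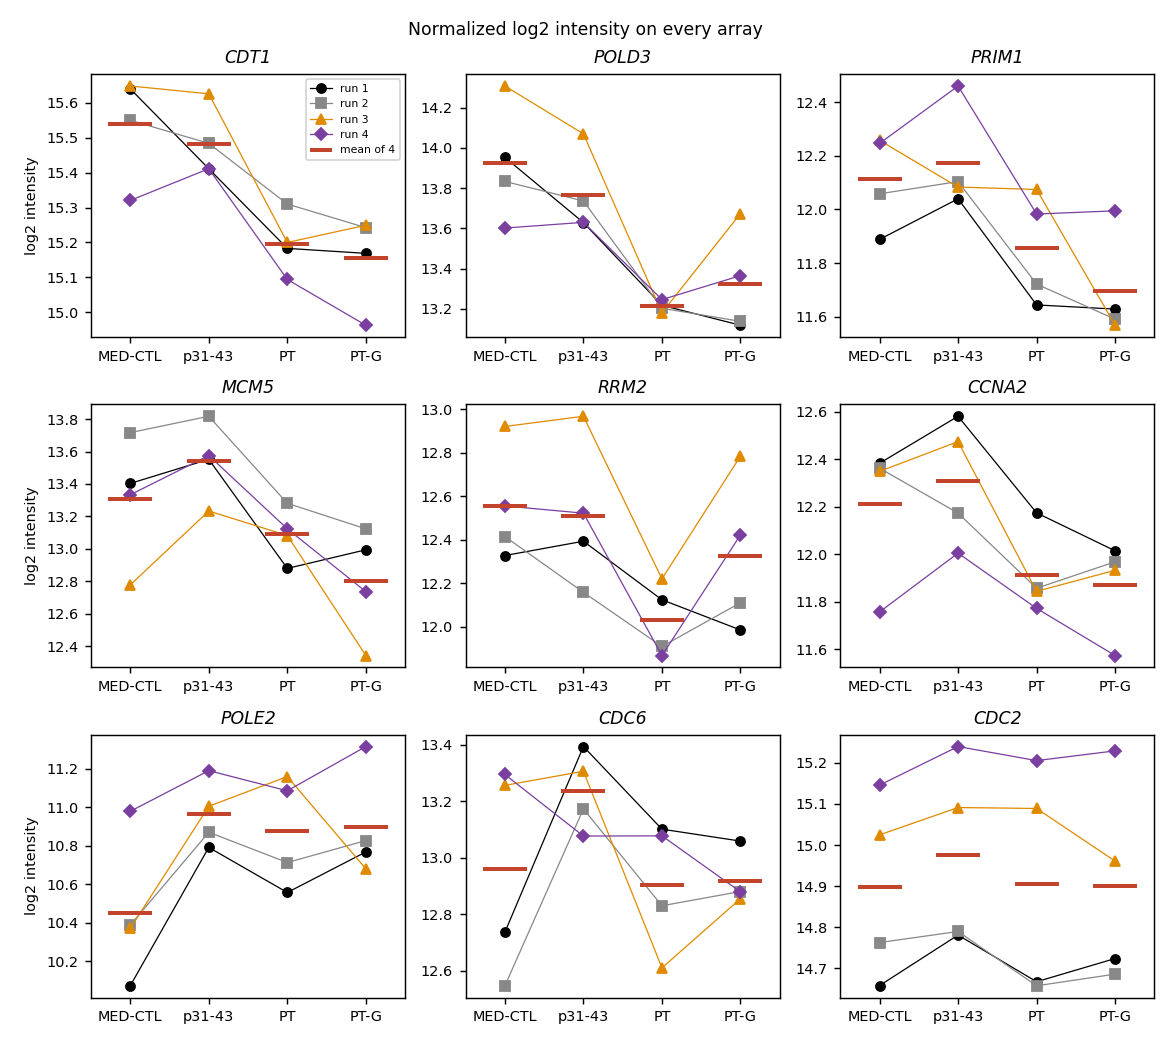
Normalized log2 intensity of 9 genes on each of the 16 arrays, by condition, with lines joining the arrays of a run and red bars for the mean of 4 arrays. CDT1 and POLD3 were lower under both digests in every run, POLE2 was higher under every treatment in every run, and CDC2 followed the run.

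The comparison of PT with MED-CTL asked what the enzyme mixture alone does. It used the same MED-CTL arrays as the comparison above, so the values are given side by side and their likeness was not tested. POLD3 and CDT1 fell at a nominal p below 0.01 and no member rose, against 1.84% and 1.8% of all probes. POLD3 also passed the adjusted threshold, which 0.383% of all probes did in that direction and 0.437% in the other. At a nominal p below 0.05, 7 members lay lower and 1 higher, against 4.79% and 4.19% of all probes. The log2 fold change was below 0 for 41 of 45 genes, against 53% of all probes, and its median was -0.20 against -0.01. In 4 genes, CDT1, CDC45L, POLD3 and RRM2, every PT array lay below every MED-CTL array, which held for 2.72% of all probes.

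POLD3 measured 13.22, 13.20, 13.18 and 13.25 under PT, a narrow range below the lowest MED-CTL array at 13.60. It fell by 0.71 ± 0.15, a fold change of 0.61 (limma, adjusted p = 0.0462). It stayed past the nominal threshold in all 29 alternatives tried, 16 of which left out 1 array, with adjusted p between 0.00326 and 0.163 (limma). CDT1 measured 15.18, 15.31, 15.20 and 15.09 under PT, with the highest array just below the lowest of MED-CTL at 15.32. It fell by 0.34 ± 0.09, a fold change of 0.788 (limma, adjusted p = 0.12). With its 2 probes averaged, the difference was -0.14 and did not pass (limma, adjusted p = 0.847). PRIM1 measured 11.64, 11.72, 12.07 and 11.98 under PT and was lower than MED-CTL in every run, at -0.26 ± 0.13 (limma, adjusted p = 0.65).

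Several further genes lay lower under PT without reaching the nominal threshold. CDC45L, which activates the helicase, measured 14.24, 14.20, 13.97 and 14.20 in MED-CTL and 13.90, 13.95, 13.79 and 13.66 under PT, with a difference of -0.33 ± 0.11 (limma, adjusted p = 0.292). RRM2 measured 12.12, 11.91, 12.22 and 11.87 under PT, all below the MED-CTL arrays, with a difference of -0.52 ± 0.20 (limma, adjusted p = 0.372). POLD1, the catalytic subunit of polymerase delta, measured 14.17, 13.84, 13.95 and 14.21 in MED-CTL and 14.01, 13.87, 13.43 and 13.52 under PT. Its difference of -0.34 ± 0.13 came mainly from runs 3 and 4 (limma, adjusted p = 0.363), and the groups overlapped. CHEK1 measured 14.34, 14.27, 14.09 and 13.90 in MED-CTL and 14.08, 13.91, 13.71 and 13.82 under PT, lower in every run (limma, adjusted p = 0.457). RFC3, a subunit of the clamp loader, measured 11.30, 11.24, 11.66 and 11.08 in MED-CTL and 11.07, 10.87, 11.15 and 10.81 under PT, also lower in every run (limma, adjusted p = 0.487). Its second probe rose, and with both probes averaged the difference turned to 0.068. CCNE2 had a difference of -0.54 with a wide interval from -1.31 to 0.23. POLE2 again lay above MED-CTL, at 10.56, 10.71, 11.16 and 11.08, by 0.43 ± 0.20 (limma, adjusted p = 0.545).

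By role, all 10 licensing genes lay below MED-CTL under PT, with a median of -0.19. So did 6 of the 7 polymerase and primase genes, 4 of the 5 clamp genes, all genes of helicase activation, joining, nucleotide supply and S phase entry, with medians of -0.26, -0.06, -0.18, -0.22, -0.25 and -0.27, and 8 of the 10 genes of G2 and mitosis, with a median of -0.09. Within G2 and mitosis, CCNA2 had the smallest p under PT, 0.0897 (limma, adjusted p = 0.674). The differences of CCNB1, CDC2 (CDK1, the mitotic kinase) and AURKB, a mitotic kinase of the chromosomal passenger complex, were -0.02, 0.01 and -0.01. CDC20, from 12.68 to 13.27 under PT, lay at 0.14, with an interval from -0.53 to 0.81. PCNA, at -0.02, had an interval from -0.30 to 0.27, and MCM2, at -0.02, from -0.29 to 0.26.

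Each run held 1 array of every condition, which allowed the comparison within runs. In run 3 the PT array was on slide 5 and was scanned on a later day than the MED-CTL array. Their median intensities before normalization were 410 and 153, so this pair was matched by run only. The median log2 difference over the 45 genes was below 0 in each run, at -0.16, -0.21, -0.11 and -0.13 for PT-G and at -0.11, -0.19, -0.18 and -0.21 for PT. The medians over all probes were nearer to 0, the lowest being -0.01 for PT-G and -0.02 for PT. Lower in every run were 16 of 45 genes under PT-G, against 14.8% of all probes, and 15 of 45 under PT, against 13.5%. POLE2 was higher in every run under both digests, and it was the only such member in either comparison, against 13.8% of all probes under PT-G and 11.1% under PT.

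With the run as a block in the limma model, the spread between runs left the error and more genes passed. Under PT-G, 7 genes fell (ORC6L, CDT1, MCM5, PRIM1, POLD3, LIG1 and CCNA2) and POLE2 rose, against 4.24% and 4.92% of all probes. Of these, 6 lower genes and POLE2 also passed the adjusted threshold, against 2.54% and 3.21%. With the replicate number of the labels as the block instead, 6 fell (CDT1, MCM5, PRIM1, POLD3, LIG1 and CCNA2) and POLE2 rose. Of all probes, 7.59% passed in both directions together. Under PT, the run block gave 11 lower genes (ORC6L, CDT1, CDC45L, POLD1, POLD3, RFC3, LIG1, RRM2, CCNE2, CHEK1 and CCNA2) and POLE2 higher, against 5.43% and 4.86% of all probes. Of these, RFC3 was lower by its brightest probe only. Of the 11, 5 genes, and POLE2, passed the adjusted threshold, against 3.41% and 3.15%. In this model CDT1 had an adjusted p of 0.00416 under PT-G and 0.00756 under PT (limma), and POLD3 had 0.0098 and 0.0039. With the slide as the block, 11 genes fell and 1 rose under PT-G, and 12 fell and 1 rose under PT, against 5.87% and 6.36%, and 5.4% and 5.17%, of all probes.

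Per array, the median over the 45 genes of the deviation from each gene's own mean lay between 0.05 and 0.18 in MED-CTL and between 0.07 and 0.18 under p31-43. It lay between -0.23 and -0.02 under PT and between -0.12 and -0.09 under PT-G. The arrays of both digests were thus apart from those of the other conditions.

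**Figure D3:**
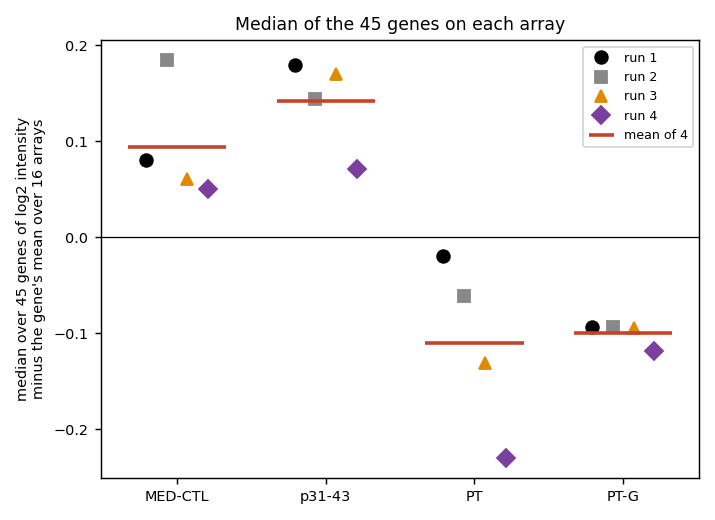
Median over the 45 genes of the log2 intensity minus the mean of that gene over 16 arrays, for each array, by condition, with a symbol per run and a red bar for the mean of 4 arrays. The arrays of PT and PT-G lie below 0 and all arrays of MED-CTL and p31-43 above 0.

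The size of the common shift depended on the scaling. With each array scaled to its median instead of quantile normalization, the median of the 45 genes was -0.084 under PT-G against -0.04 for all probes, and -0.14 under PT against -0.11, so it kept its sign but stood nearer to the value of all probes. Below MED-CTL were then 34 and 33 of the 45 genes, against 59.7% and 66.2% of all probes. POLD3 remained past the nominal threshold in both comparisons, at -0.53 and -0.65 (limma, adjusted p = 0.357 and 0.163), while CDT1, at -0.30 and -0.31, and PRIM1 did not pass. With the scanner's processed signal scaled to the 75th percentile, the medians were -0.16 and -0.19, against -0.016 and -0.001 for all probes. In this setting 43 and 40 genes lay below MED-CTL, against 52.4% and 50.1% of all probes.

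**Figure D4:**
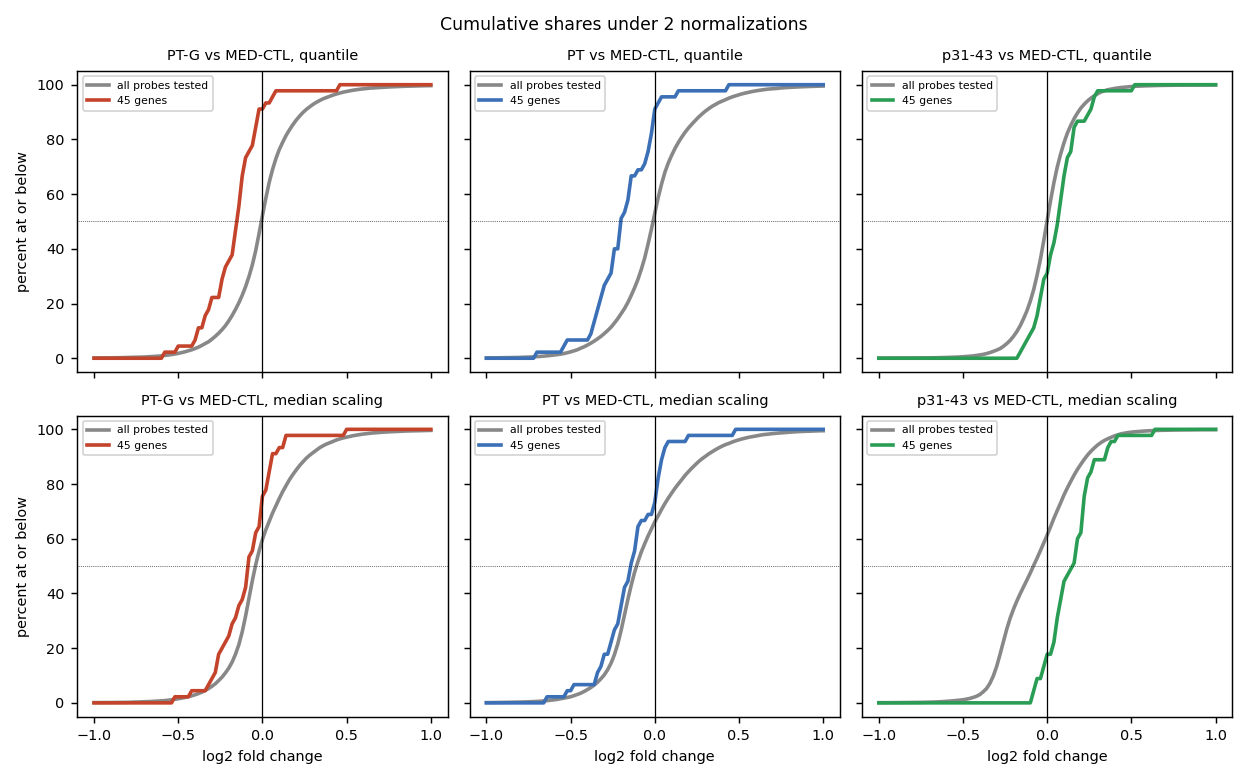
Cumulative percent of the 45 genes (coloured) and of all probes tested (grey) by log2 fold change against MED-CTL, after quantile normalization (top) and after median scaling (bottom). Under both digests the 45 genes lie to the left of all probes after quantile normalization and, by less at the median, after median scaling, and under p31-43 they lie to the right.

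The comparison of p31-43 with MED-CTL asked whether the peptide acts on the cells. No member passed a nominal p below 0.01 in limma, against 0.244% of all probes lower and 0.144% higher. At a nominal p below 0.05, 2 members lay higher and none lower, against 0.991% and 1.16% of all probes. The log2 fold change was above 0 for 31 of 45 genes, against 49.6% of all probes, with a median of 0.06. Without p31-43 replicate 1, 22 rather than 14 genes lay below MED-CTL, against 50.7% of all probes. With the processed signal 20 genes lay below MED-CTL, against 65.5% of all probes, with a median of 0.01. After median scaling the median was 0.15 against -0.08 for all probes. The 95% interval stayed within a 1.5-fold change in either direction for 35 genes and within a 2-fold change for all 45.

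POLE2 had the smallest p. It measured 10.79, 10.87, 11.00 and 11.19 under p31-43, above MED-CTL in every run, by 0.51 ± 0.20 (limma, adjusted p = 1). It passed the nominal threshold with the run as a block, as 0.713% of all probes did in that direction (limma, adjusted p = 0.517), with the replicate number as a block (limma, adjusted p = 0.915), after median scaling (limma, adjusted p = 0.548) and without MED-CTL replicate 4, whose level of 10.98 was the highest of its group. MCM7, a helicase subunit, measured 16.02, 16.31, 15.91 and 16.23 in MED-CTL and 16.24, 16.34, 16.40 and 16.49 under p31-43, with a difference of 0.25 ± 0.10 (limma, adjusted p = 1). MCM2, at 14.49, 14.65, 14.34 and 14.43, lay 0.26 above MED-CTL (limma, adjusted p = 1). All these genes were higher in every run, which held for 9 of 45 genes and for 8.51% of all probes. The differences of CDT1, POLD3 and PRIM1 were -0.06, -0.16 and 0.06, with intervals from -0.25 to 0.14, from -0.48 to 0.17 and from -0.23 to 0.35.

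The comparison of PT-G with PT asked what gliadin adds to the enzyme mixture. The concentrations of both are not given, so their enzyme amounts may not match. No member passed a nominal p below 0.01 or 0.05 in limma. Of all probes, 0.0366% were lower and 0.0537% higher at the first threshold, and 0.307% and 0.473% at the second. The median over the 45 genes was 0.03. The 95% interval stayed within a 1.5-fold change for 33 genes and within a 2-fold change for 44. The exception was CCNE2, at 0.41 with an interval from -0.36 to 1.18. The smallest p belonged to MCM4, at 0.21 ± 0.13, RRM2, at 0.30 ± 0.20, and MCM5, at -0.29 ± 0.20 (limma, adjusted p = 1 each). Without PT-G replicate 3 these differences were 0.13, 0.14 and -0.14. CDT1, POLD3, PRIM1 and POLE2 differed by -0.04, 0.11, -0.16 and 0.02, with intervals from -0.23 to 0.15, from -0.21 to 0.44, from -0.45 to 0.13 and from -0.40 to 0.44.

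For most members the runs differed more than the conditions. The run accounted for a median of 45.7% of a gene's variance over the 16 arrays and the condition for 27.8%, against 44.8% and 14.8% over all probes. The share of the condition was highest for CDT1, at 72.1%, and POLD3, at 70.3%. CDC2 was at the other end, with 94.9% for the run and 2.22% for the condition. It measured 14.66, 14.76, 15.02 and 15.15 in MED-CTL, and runs 3 and 4 were above runs 1 and 2 in every condition.

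For CDC6, the licensing factor that acts with CDT1, the differences from MED-CTL had opposite signs in the earlier pair of runs (1 and 2) and the later pair (3 and 4) under PT, which did not pass an adjusted test. It measured 12.74, 12.55, 13.26 and 13.29 in MED-CTL, 13.06, 12.88, 12.86 and 12.88 under PT-G, 13.10, 12.83, 12.61 and 13.08 under PT, and 13.39, 13.17, 13.31 and 13.08 under p31-43. MED-CTL was low in the earlier pair and high in the later pair, and the treated arrays did not follow it. Under PT the difference from MED-CTL was 0.32 in the earlier and -0.43 in the later pair, and the interaction had a nominal p of 0.00901 (limma, adjusted p = 0.939). CDC6 was the only member to pass the nominal threshold of this test in the comparison of PT with MED-CTL, in which 1.02% of all probes passed. This nominal call was lost with the processed signal, normexp background correction, median scaling and the filter on dim probes, and kept in 2 of 6 alternatives. Under PT-G and p31-43 the interaction had a p of 0.0104 and 0.0112 (limma, adjusted p = 1 in both), and all these comparisons share the MED-CTL arrays.

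Other probes of the same genes bore on a few of these results. For 12 genes with several probes, the other probes had the sign of the brightest one in 11 genes under PT-G and in 9 under PT. The same held for only 6 of the 12 under p31-43 and for 7 between PT-G and PT. The second probe of POLD3 lay at -0.22 ± 0.32 under both digests, and that of CDT1 at -0.24 ± 0.28 under PT-G and 0.07 ± 0.28 under PT, so these noisier probes neither passed the test nor had the size of the brightest. The second probes of RRM2 and POLD1 lay at -0.50 and -0.39 under PT. Under PT, the second probe of PLK1 also lay above MED-CTL, at 0.07, where its brightest lay at -0.16. RFC3 alone had a second probe that passed the test in the opposite direction. This probe, designed on another transcript accession than the brightest one, rose by 0.56 ± 0.09 under PT-G and by 0.48 ± 0.09 under PT (limma, adjusted p = 0.0115 and 0.0308), where the brightest probe lay at -0.22 and -0.34. The direction of RFC3 depends on the choice of probe.

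Lists of genes with neighbouring roles were examined in the same fit. Of 38 other replication fork genes, 3 fell under PT-G and 5 under PT, and none rose, where 1.52% and 1.84% of all probes fell. The numbers lay between 2 and 4 and between 2 and 5 with 1 array left out, and between 0 and 7 and between 2 and 6 in the other alternatives, with 0 and 2 after median scaling. CHAF1B, a subunit of the histone chaperone that follows the fork, fell by 0.49 and 0.53 (limma, adjusted p = 0.0344 and 0.0231), and POLE3, a small subunit of polymerase epsilon, by 0.41 and 0.52 (limma, adjusted p = 0.176 and 0.0693). RPA2, of the single-strand binding complex, fell by 0.28 under PT-G. CDC7, the kinase that fires origins, CDCA7 and TIMELESS, a fork protection protein, fell by 0.40, 0.51 and 0.33 under PT. The median of the list was -0.07 under PT-G and -0.16 under PT. After median scaling it was 0.01 and -0.11, against -0.04 and -0.11 for all probes. The list then lay slightly above all probes under PT-G and level with them under PT.

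Of 40 other mitotic genes, 3 fell under PT-G and 2 under PT, and none rose, where 1.52% and 1.84% of all probes fell. With the run as a block, 7 fell and 1 rose under PT-G, against 4.24% and 4.92% of all probes. Under PT, 8 fell and 1 rose in this model, against 5.43% and 4.86%. The number past the threshold was between 0 and 3 for PT-G and between 2 and 6 for PT with 1 array left out, and between 0 and 9 for both in the other alternatives. CENPF, of the outer kinetochore, fell by 0.38 and 0.50, CDCA1, a subunit of the NDC80 complex, by 0.39 and 0.50, and CCNB2, a mitotic cyclin, by 0.25 under PT-G. The adjusted p of these genes lay above 0.05 (limma, from 0.0966 to 0.288). Of 30 genes of DNA damage and repair, 3 fell under PT-G and 3 under PT, against 1.52% and 1.84% of all probes. With the run as a block, 6 fell under PT-G and 14 under PT, where 4.24% and 5.43% of all probes fell. The number was between 1 and 4 in both comparisons with 1 array left out, and after median scaling it was 0 and 1. BRCA1, of homologous recombination, fell by 0.44 and 0.50 (limma, adjusted p = 0.0779 and 0.0417). DDB2, of nucleotide excision repair, fell by 0.37 under PT-G, and RAD50 and KIAA1794 (FANCI), of break and crosslink repair, by 0.43 and 0.29 under PT. The median was -0.15 under PT-G and -0.19 under PT for the mitotic list, and -0.19 and -0.22 for the repair list. After median scaling the former were -0.07 and -0.13 and the latter -0.12 and -0.21. The medians of all probes were then -0.04 and -0.11, so the mitotic list lay near them.

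Of 40 regulators of G1 and of checkpoints, 4 rose and none fell under PT-G, where 1.91% and 1.52% of all probes did. Under PT, 4 rose and 1 fell, against 1.8% and 1.84%. With the run as a block, 9 rose and 4 fell under PT-G, against 4.92% and 4.24%. The same block gave 7 and 2 under PT, against 4.86% and 5.43%. With 1 array left out, the number past the threshold lay between 3 and 6 for PT-G and between 3 and 7 for PT. In the other alternatives it lay between 3 and 17 and between 4 and 9. CDKN1A, which encodes the p21 inhibitor of cyclin-dependent kinases, rose by 1.22 ± 0.27 under PT-G and by 1.34 ± 0.27 under PT (limma, adjusted p = 0.0464 and 0.0315). BTG2, an antiproliferative gene, rose by 1.04 ± 0.14 and 0.93 ± 0.14 (limma, adjusted p = 0.00267 and 0.00612). MYC, a transcription factor that promotes growth, rose by 1.07 ± 0.27 under PT-G (limma, adjusted p = 0.0963), and E2F5, a repressive member of the E2F family, rose by 0.41. Under PT, CDKN2D, an inhibitor of CDK4 and CDK6, and BTG1 rose by 0.57 and 0.43, and RBL1, a relative of the retinoblastoma protein, fell by 0.77. Among the genes named as rising, MYC alone promotes growth, and it passed the nominal threshold under PT-G only. The median of the list was 0.05 under either digest.

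Histones of the replication-dependent class are normally made with DNA in S phase. Their probes mostly lay above MED-CTL under both digests, where most of the 45 genes lay below it. Of 21 histone genes measured, 3 lay below MED-CTL under PT-G, 1 with PT and 1 with p31-43. Of all probes, 52.1%, 53% and 50.4% lay below it. The medians of the list were 0.17, 0.37 and 0.17. After median scaling these medians were 0.21, 0.40 and 0.27, against -0.04, -0.11 and -0.08 for all probes. A single one passed the test, HIST1H4B, which rose by 1.99 ± 0.67 under PT (limma, adjusted p = 0.27). Under PT, 1.8% of all probes rose. With the run as a block, 2 histone genes rose under PT-G and 5 under PT, against 4.92% and 4.86% of all probes. The histone genes are near-identical copies of each other, so a probe may read several of them. Which transcripts the probes read was not tested, and nothing on histone output is drawn from them. In none of the 5 lists did a gene pass the test under p31-43 or between PT-G and PT.

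**Figure D5:**
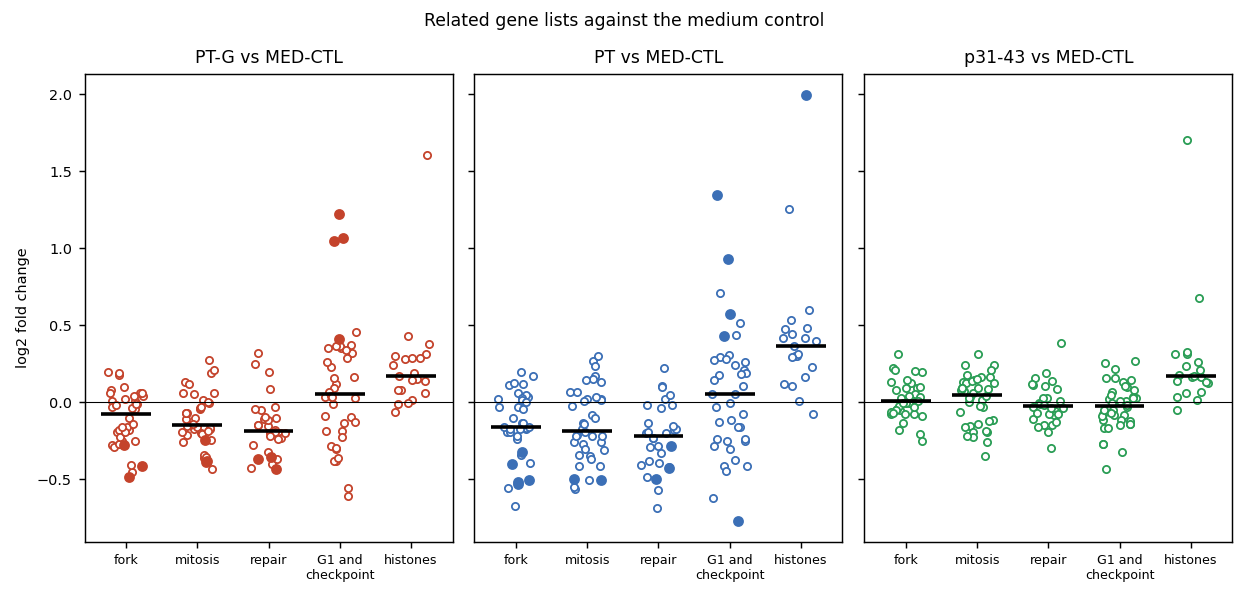
Log2 fold change against MED-CTL of every measured gene of the related lists, for PT-G, PT and p31-43, with filled points for a nominal p below 0.01 and black bars for the list median. Fork, mitosis and repair medians lie below 0 under both digests, and the histone median lies above 0 under every treatment.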

How the data were processed

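Gene expression was measured on 16 one-colour oligonucleotide arrays, 4 per condition, each with 45015 spots. The authors deposited scanner files that hold the median foreground intensity of the spots, linear and without background subtraction, and a table of log2 values that are quantile normalized over all spots and that differ from a recomputation by at most 5e-09. From the intensities, the 43376 spots that are not controls were quantile normalized on the log2 scale without background correction, 1774 spots (0.256%) marked as outliers by the image analysis were left out, and spots of a probe were averaged. Probes needed 3 arrays in each condition, which left 40982 of 41000. The conditions were compared in 1 linear model with limma (version 3.58.1, R 4.3.3), with 12 residual and 1.88 prior degrees of freedom, and p-values were adjusted by the Benjamini-Hochberg method over all probes. The nominal threshold of 0.01 is that of the study's methods. The authors' re-annotation of probes was not used here, and gene names are those of the array. The intervals are 95% intervals of the same fit. The number of arrays limits the precision.

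The members and the lists were chosen with earlier results of these data known. Values on every array are given for the 12 members of smallest p under PT-G or PT and for further members chosen by role, as ranges where crowded. For the other comparisons the 3 members of smallest p are named, and of each related list up to 5 genes with a nominal p below 0.01. In the fit without a block, a p-value sets a difference against the spread between arrays of the same condition, pooled over the 4 conditions. These arrays came from 4 experiments on 1 cell line. With a block, the spread between blocks is taken out of that error. Run-wise correlations of the deviations from the condition means lay between 0.628 and 0.857 for PT-G and MED-CTL and between 0.538 and 0.707 for p31-43 and MED-CTL, but reached down to -0.01 for PT and MED-CTL. By replicate number they lay between 0.395 and 0.857, between 0.262 and 0.707 and between -0.01 and 0.41. The pairings differ only for replicates 1 and 2, whose MED-CTL numbers are crossed. There PT-G gave 0.628 and 0.723 by run, but 0.558 and 0.395 by number. For p31-43 the values were 0.538 and 0.686 by run, and 0.306 and 0.262 by number. The correlations were thus lower by number, and which of the 2 marks the experiment was not tested. Alternatives changed the signal, the normalization, the filters, the block, the arrays in the fit and the probe of a gene. The values of 1 gene of the related lists are not reported here. The procedure was tested on simulated data.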

Additional observations from a re-analysis of the deposited data

Results flagged for a closer look

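In 12 of the 180 sets of 4 arrays (a gene in a condition), 1 array lay apart from the others, by a gap above the 95% critical value of Dixon's ratio, where chance gives about 1 in 20 sets. Among licensing genes, CDC6 measured 13.06 on PT-G replicate 1 (12.86 to 12.88 on the others), MCM4 11.50 on MED-CTL replicate 2 (11.86 to 11.93) and MCM6 16.15 on MED-CTL replicate 3 (15.39 to 15.52). CDC45L measured 13.97 and POLE 8.23 on MED-CTL replicate 3, below 14.20 to 14.24 and 8.64 to 8.72 on the others. PRIM1 was high on p31-43 replicate 4, at 12.46 (12.04 to 12.10), and on PT-G replicate 4, at 11.99 (11.57 to 11.63). RFC4 measured 12.22 on p31-43 replicate 3 (13.16 to 13.32), RFC5 13.21 on PT-G replicate 4 (12.90 to 12.95) and FEN1 12.95 on p31-43 replicate 4 (13.51 to 13.57). On MED-CTL replicate 4, CCNA2 measured 11.76 (12.35 to 12.38) and CCNB1 15.15 (14.93 to 14.95).

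The effect of PT on CDC6 differed between the pairs of runs at the nominal threshold only, with later minus earlier at -0.76 (SE 0.23, limma, adjusted p = 0.939). Its nominal call was kept in 2 of 6 alternatives. The same MED-CTL arrays enter the differences for PT-G and p31-43.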

How the results depend on the processing

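Direction and nominal call of POLD3 under PT held in all 29 alternatives, and its call under PT-G in 28, those of CDT1 in 27 under PT-G and 26 under PT, and that of PRIM1 under PT-G in 17. Of these 29 alternatives, 16 left out 1 array. Where that array belonged to neither group compared, only the error could change and not the difference. The sign of RFC3 turned when the probes of a gene were averaged, to 0.17 under PT-G and 0.068 under PT, its second probe having risen. No other named member changed sign in these comparisons.

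The number of members past the nominal threshold was 3 for PT-G, 2 for PT, 0 for p31-43 and 0 for PT-G against PT. Of all probes, 3.44%, 3.64%, 0.388% and 0.0903% passed it. With the replicate block it was 7, 10, 1 and 0, against 7.59%, 8.49%, 1.05% and 0.232% of all probes. Blocking on the run gave 8, 12, 1 and 0, against 9.16%, 10.3%, 1.38% and 0.317%. Blocking on the slide gave 12, 13, 2 and 0, against 12.2%, 10.6%, 3.73% and 0.364%. Median scaling gave 1 for PT-G, 1 for PT and 1 for p31-43, against 2.54%, 2.66% and 0.71% of all probes. The medians were then -0.084, -0.14 and 0.15. A fit of only the 2 groups compared gave 1 for PT-G and 4 for PT, against 2.17% and 2.73%. For PT, array weights gave 5 and the processed signal 1, against 6.15% and 2.76% of all probes. The mean of all probes gave 1, against 3.85% of all genes. For p31-43 array weights gave 2, against 1.4% of all probes. With 1 array left out, the number lay between 2 and 5 for PT-G, 2 and 6 for PT and 0 and 1 for p31-43, and was 0 for PT-G against PT. Of all probes, between 2.58% and 4.11% passed for PT-G, 2.64% and 4.58% for PT, and 0.215% and 0.803% for p31-43. The highest numbers were those without MED-CTL replicate 4, where these shares were highest too. The median lay between -0.19 and -0.13 for PT-G, between -0.22 and -0.14 for PT, between 0.00 and 0.08 for p31-43 and between -0.00 and 0.07 for PT-G against PT. Without MED-CTL replicate 3, MCM5 and ORC1L passed the nominal threshold under PT-G, at -0.69 and -0.42. The run-pair difference of CDC6 under PT, 1 call, became 0 with the processed signal, normexp, median scaling or a filter on dim probes. It became 1 call, from 0, with normexp for PT-G and with median scaling for p31-43. The members lower in every run, 2 for p31-43 and 2 for PT-G against PT, became 0 and 1 after median scaling. The shares of all probes for these counts are not given here, so nothing is read from them. The cause of these changes was not tested. The run-wise alternatives and the medians of the related lists were added after seeing the data.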
